A study of Homo sapiens with 30 samples.

Results

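RSRP1 (NCBI gene 57035), the gene named in the knockout label of this series, is described here over all libraries of the series. It is 1 of 26801 genes in the deposited table and its row was taken by name. The series measured polyadenylated RNA of A549, an established human lung adenocarcinoma line, with or without a magnetic field, and its title links RSRP1 to secreted signals and the suppression of these cells. It holds 30 libraries in 10 groups of 3.

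All groups are A549 cells. KOA carries the genotype label RSRP1 KO and no further label part, and iR_KOA and iR_KOA_D3 carry the same genotype. The groups iR_WTA and iR_WTA_D3 carry the label WT. Each of these 5 backgrounds was sampled with a magnetic exposure labelled 2H (EX) and with no field (NE). The sources used here do not say what iR and D3 stand for. They also do not say how or where the gene was altered, or whether the knockout is 1 clone. No wild type without iR was analysed here, so genotype can be compared only within iR and within iR with D3. Whether the 3 samples of each group came from separate cultures is not in the labels. The p-values therefore reflect only how far these samples spread, and that spread may be technical.

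RSRP1 encodes a protein rich in arginine and serine, a composition it shares with the SR proteins. SR proteins bind pre-mRNA, help to define exons and gather in nuclear speckles, and kinases of the CLK, SRPK and DYRK families phosphorylate their arginine-serine repeats. Oligo(dT) selection followed by gene-level counting adds all transcripts of a gene together. Any RSRP1 transcript left in the knockout, altered or not, therefore contributes to the value of the gene.

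The gene lies on the minus strand of chromosome 1, at 25242249 to 25338254 in the RefSeq annotation of GRCh38.p14. GENCODE release 29 lists 22 transcripts for it. Of these, 5 are protein-coding, 4 are targets of nonsense-mediated decay, 4 retain an intron and 9 are processed transcripts with no reading frame. The coding transcript RSRP1-201 has 5 exons and starts at 25247519, which is 90735 bases downstream of the RefSeq start, while 8 of the 22 transcripts start within 10000 bases of that distal start. Its reading frame has 290 codons, of which 59 encode arginine and 62 serine, 41.7% together. The densest stretch is shown because it is the feature that names the gene. It spans codons 27 to 66 in exon 2 (GRCh38, chr1:25246766-25246885, minus strand), with arginine and serine codons in capitals, 13 and 21 of 40:
RSRP1 coding stretch: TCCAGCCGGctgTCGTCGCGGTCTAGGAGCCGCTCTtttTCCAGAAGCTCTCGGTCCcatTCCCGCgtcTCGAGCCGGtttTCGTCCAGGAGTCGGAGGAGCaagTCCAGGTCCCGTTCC

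The distal start of RSRP1 faces that of TMEM50A, a gene for a small membrane protein on the plus strand, with 79 bases between them (GRCh38.p14, chr1:25338255-25338333). They are shown, on the strand of RSRP1, because both genes were measured in every library. Capitals mark GCGCATGC, the core recognised by the factor NRF1:
between the RSRP1 and TMEM50A starts: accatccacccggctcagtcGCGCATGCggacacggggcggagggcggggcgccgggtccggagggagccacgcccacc
These bases hold 78.5% G or C. The NRF1 core occurs in 3.05% of the 35116 RefSeq promoter windows of 300 bases, searched on both strands. The GC box GGGCGG occurs 2 times between the starts and in 45% of the windows. A match is a match of letters only.

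The RSRP1 values of knockout and wild-type libraries formed 2 sets with no value between them, the knockout set being the low one. In KOA the unexposed libraries held 2.12, 2.70 and 2.46 FPKM and the exposed ones 2.20, 2.09 and 2.20 FPKM. FPKM is the number of fragments scaled to the length of the gene and the total of the library. In iR_KOA the values were 7.63, 7.95 and 7.45 FPKM unexposed and 5.80, 6.26 and 6.84 FPKM exposed. All 3 exposed libraries of iR_KOA lay below all 3 unexposed ones, whereas in KOA the groups overlapped.

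In iR_KOA_D3 the unexposed libraries held 5.84, 6.27 and 6.33 FPKM and the exposed ones 7.21, 6.46 and 6.87 FPKM, so that here every exposed library was above every unexposed one. In the wild type the unexposed iR_WTA libraries held 48.5, 48.6 and 49.8 FPKM and the exposed ones 62.0, 63.4 and 63.3 FPKM. The iR_WTA_D3 libraries held 37.4, 41.7 and 37.4 FPKM unexposed and 53.4, 59.9 and 53.6 FPKM exposed. Exposed and unexposed wild-type libraries did not overlap within either background. Replicate 2 was the high library in both iR_WTA_D3 groups.

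**Figure D1:**
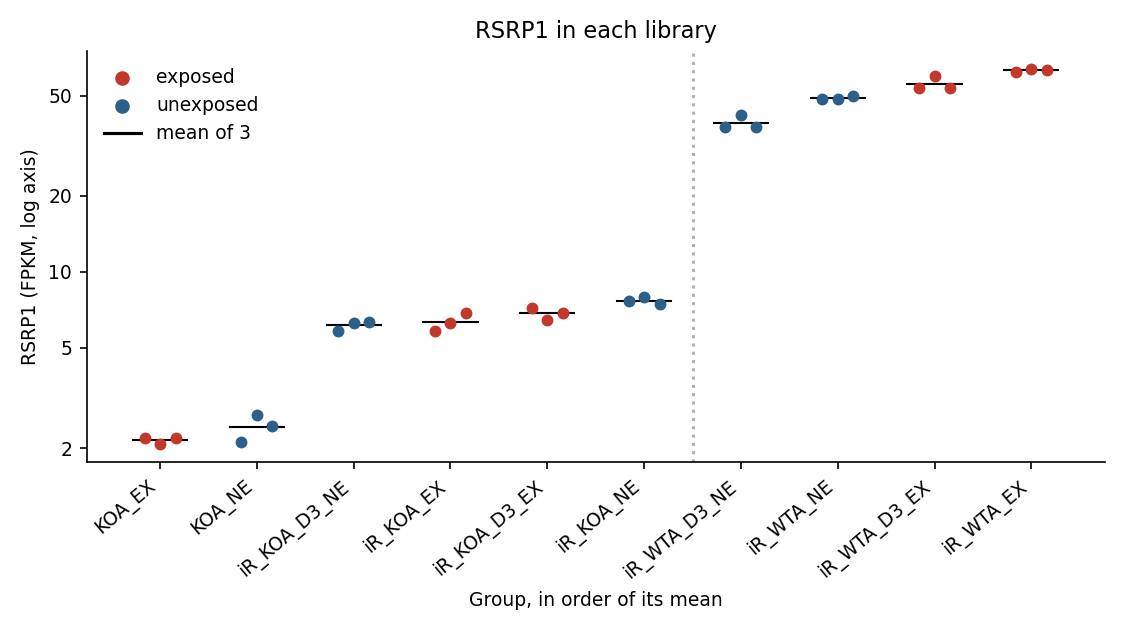
RSRP1 in FPKM on a log axis for each of the 30 libraries, with groups in order of their means, red for exposed and blue for unexposed libraries, and a line for the mean of 3. The 18 knockout libraries, left of the dotted line, lie between 2.09 and 7.95 FPKM and the 12 wild-type libraries between 37.4 and 63.4 FPKM.

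These levels rest on whole reads that could be recovered from the steps between FPKM values. RSRP1 had 199 to 255 reads per library in KOA, 555 to 775 in the other knockout groups and 3421 to 6192 in the wild type, out of 34620445 to 38939339 reads per library. The variance between libraries was 0.188 to 4.11 times that of counting alone in the knockout groups and 1.04 to 1.17 times in iR_WTA. It was 15.3 and 23.9 times in unexposed and exposed iR_WTA_D3, so counting error is a small part of the spread there. RSRP1 stood at percentiles 64.5 to 78.9 of all genes by mean FPKM in the knockout groups and at percentiles 94.7 to 96.7 in the wild type. The knockout transcript was thus well above a count of 0 in every library.

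Ordered by mean, the groups ran from exposed KOA (2.16 ± 0.0656 FPKM, SD, n = 3, as for the values that follow) and unexposed KOA (2.43 ± 0.291) to unexposed iR_KOA_D3 (6.15 ± 0.266), exposed iR_KOA (6.30 ± 0.523), exposed iR_KOA_D3 (6.85 ± 0.377) and unexposed iR_KOA (7.68 ± 0.252). The wild-type groups followed, from unexposed iR_WTA_D3 (38.9 ± 2.49) and unexposed iR_WTA (48.96 ± 0.767) to exposed iR_WTA_D3 (55.6 ± 3.70) and exposed iR_WTA (62.9 ± 0.816). Neighbours were tested with limma over all 12086 genes that reached 1 FPKM in 3 libraries, on log2(FPKM + 1), with Benjamini-Hochberg adjustment, two-sided and at a threshold of 0.05.

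The order of the groups was taken from the same values, so positive differences were built in and the p-values alone do not settle it. Of the 9 neighbouring pairs, 3 did not pass, the only pairs whose libraries overlapped. They were the KOA groups (0.11, 95% interval -0.01 to 0.23, adjusted p = 0.126; 41.5% of genes were called in this pair), exposed iR_KOA against unexposed iR_KOA_D3 (0.03, -0.09 to 0.15, adjusted p = 0.684; 62.0% called), and exposed iR_KOA_D3 against exposed iR_KOA (0.11, -0.02 to 0.23, adjusted p = 0.138; 52.3% called). The order within the 2 KOA groups, and within unexposed iR_KOA_D3, exposed iR_KOA and exposed iR_KOA_D3 for the neighbours tested, is thus not settled by their spread. Unexposed iR_KOA was above exposed iR_KOA_D3 by 0.15 (adjusted p = 0.0332; 63.9% called), but by 0.03 with median-of-ratios scaling and 0.03 with quantile normalization, both not past the threshold. Exposed iR_WTA_D3 was above unexposed iR_WTA by 0.18 (adjusted p = 0.0106; 60.6% called), and by 0.13 without its replicate 2, no longer past the threshold. The steps from unexposed KOA to unexposed iR_KOA_D3 (1.06, adjusted p = 8.85e-14; 50.3% called) and from unexposed iR_KOA to unexposed iR_WTA_D3 (2.20, adjusted p = 6.09e-21; 64.0% called) were the large ones, and the other pairs are comparisons given below.

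In the knockout RSRP1 was lower than in the wild type of the same state in all 4 states. The difference in log2(FPKM + 1) was -2.53 ± 0.06 (SE) in unexposed iR, where 65.3% of genes were called, and -2.48 in unexposed iR with D3, where 69.1% were. In exposed cells it was -3.13 ± 0.06 in iR (adjusted p = 4.03e-24; 65.6% called) and -2.85 ± 0.06 in iR with D3 (adjusted p = 2.02e-23; 69.9% called). These sizes ranked 43rd, 78th, 18th and 43rd among the 12086 genes in the order given. Because more than 6 in 10 genes were called in each of these comparisons, the rank by size says more of RSRP1 than the call.

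The knockout level was 15.7% ± 0.329 (SE) of the wild-type level in unexposed iR and 10.0% ± 0.486 in exposed iR. It was 15.8% ± 0.706 in unexposed iR with D3 and 12.3% ± 0.613 in exposed iR with D3. Taking the lowest knockout over the highest wild-type library and the reverse, the share ran from 14.9% to 16.4%, 9.15% to 11.0%, 14.0% to 16.9% and 10.8% to 13.5% in these states. Knockout minus wild type was -41.3, -56.6, -32.7 and -48.8 FPKM. The share was lower with exposure in iR, where the wild type rose and the knockout fell. KOA, for which no matched wild type was analysed here, held less RSRP1 than any other group.

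**Figure D2:**
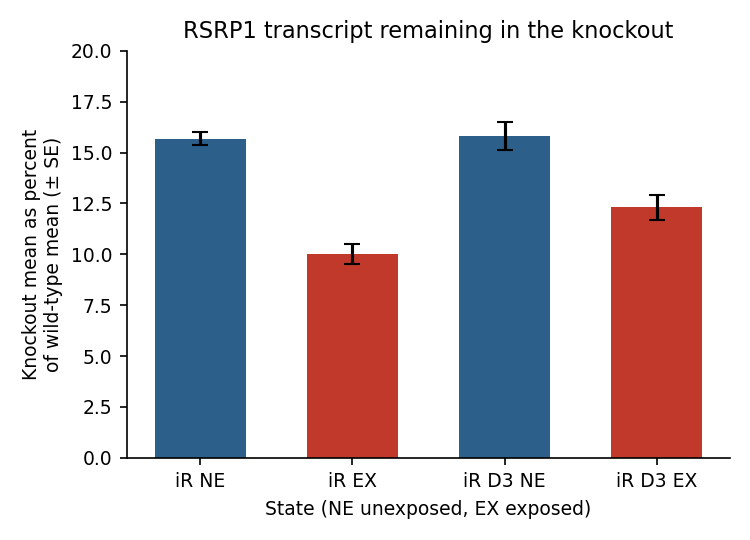
Mean RSRP1 FPKM of the knockout as a percent of the wild-type mean in the same state, with bars for the ratio and error bars for its SE (n = 3 and 3). The percent is 15.7 and 15.8 in the unexposed states and 10.0 and 12.3 in the exposed ones.

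The cell line label was checked with marker genes. Of 14 genes typical of A549, 12 were above 1 FPKM in all 30 libraries, among them the keratin KRT8 and the detoxifying enzymes ALDH1A1 and AKR1B10, while EPCAM (0.402 to 1.85 FPKM) and KRT19 (0.0194 to 22.8 FPKM) were not. CDKN2A, deleted in this line, stayed at or below 0.00622 FPKM. The pan-leukocyte gene PTPRC and the endothelial gene PECAM1 reached at most 0.0411 and 0.0114 FPKM, and HBA1 was listed at 0 in every library. Marker sums also differed in range between the 18 knockout libraries, which include KOA without iR, and the 12 wild-type libraries: the summed A549 markers were 11170 to 11980 FPKM in the former and 8005 to 9394 in the latter. The summed leukocyte markers, nearly all CD68 and CD14, were 37.4 to 46.7 and 30.0 to 39.4 FPKM and the fibroblast markers 0.448 to 2.49 and 1.34 to 4.37 FPKM, with ranges that overlap. The endothelial sums did not overlap, at 0.264 to 1.30 FPKM in the knockout and 0.00307 to 0.0445 FPKM in the wild type. The part of these marker differences in the RSRP1 difference was not tested. In bulk RNA, fewer cells that express a gene and less RNA of it per cell cannot be told apart.

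Within the knockout, RSRP1 was higher with the label iR. The mean was 3.16 ± 0.227 (SE) times that of KOA in unexposed cells, a difference of 5.25 FPKM, and 2.92 ± 0.149 times in exposed cells, a difference of 4.14 FPKM. On the log2 scale the differences were 1.34 ± 0.06 (adjusted p = 6.1e-15, with 38.5% of genes called) and 1.21 ± 0.06 (adjusted p = 2.61e-14, 39.8% called). RSRP1 ranked 15th and 27th by size among 12086 genes. The size depends on the pseudocount at these low levels, from 1.63 with a pseudocount of 0.1 to 0.77 with 5 in unexposed cells. The exposure effect in iR_KOA minus that in KOA was -0.14 (95% interval -0.31 to 0.03, adjusted p = 0.424, 5.08% called).

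Exposure moved RSRP1 upward in the wild type and not uniformly in the knockout. The exposed mean was 1.28 ± 0.0151 (SE) times the unexposed one in iR_WTA and 1.43 ± 0.0764 times in iR_WTA_D3, gains of 13.9 and 16.8 FPKM. On the log2 scale these were 0.36 (adjusted p = 5.67e-05, 28.6% of genes called) and 0.51 (adjusted p = 2.01e-07, 41.8% called). By size RSRP1 ranked 782nd and 621st of 12086, so many genes moved more.

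In the knockout the exposed mean was 0.890 ± 0.0635 times the unexposed one in KOA, 0.821 ± 0.0423 times in iR_KOA and 1.11 ± 0.0451 times in iR_KOA_D3. The changes in FPKM were -0.267, -1.37 and 0.70. Only the fall in iR_KOA passed (log2 difference -0.25, adjusted p = 0.00185; 35.3% called). The values were -0.11 in KOA (adjusted p = 0.126; 41.5% called) and 0.13 in iR_KOA_D3 (adjusted p = 0.0648; 45.1% called). The latter passed under both other scalings, at 0.16 and 0.17, and the former without unexposed replicate 1, at -0.18.

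Interactions test these contrasts against each other. The knockout's exposure effect minus the wild type's was -0.61 ± 0.08 (SE) in iR (adjusted p = 0.000197), where only 0.538% of genes were called and RSRP1 ranked 8th by p-value and 64th by size. With D3 it was -0.37 ± 0.08 (adjusted p = 0.0139; 2.38% called), and the call was lost when only the 4 groups compared were fitted (adjusted p = 0.0691). RSRP1 ranked 125th by p-value and 445th by size there in the main fit. Pooled over both states the difference was -0.49 ± 0.06 (adjusted p = 7.06e-06; 4.43% called), and RSRP1 ranked 21st by p-value and 131st by size. This pooled term is a difference in log2(FPKM + 1), between an intact gene and a residual transcript at a much lower level, and it lay between -0.51 and -0.44 under the 10 alternatives run.

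The exposure effect with D3 minus that without was 0.39 ± 0.08 in the knockout (adjusted p = 0.00824; 4.14% called) and 0.15 ± 0.08 in the wild type (adjusted p = 0.403; 1.67% called). Whether these 2 differ was tested by the three-way term, which was 0.23 ± 0.12 (95% interval -0.01 to 0.48, adjusted p = 0.992; 0.0165% called). A dependence of the exposure effect on D3 was therefore called in the knockout, but not shown to be particular to it.

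**Figure D3:**
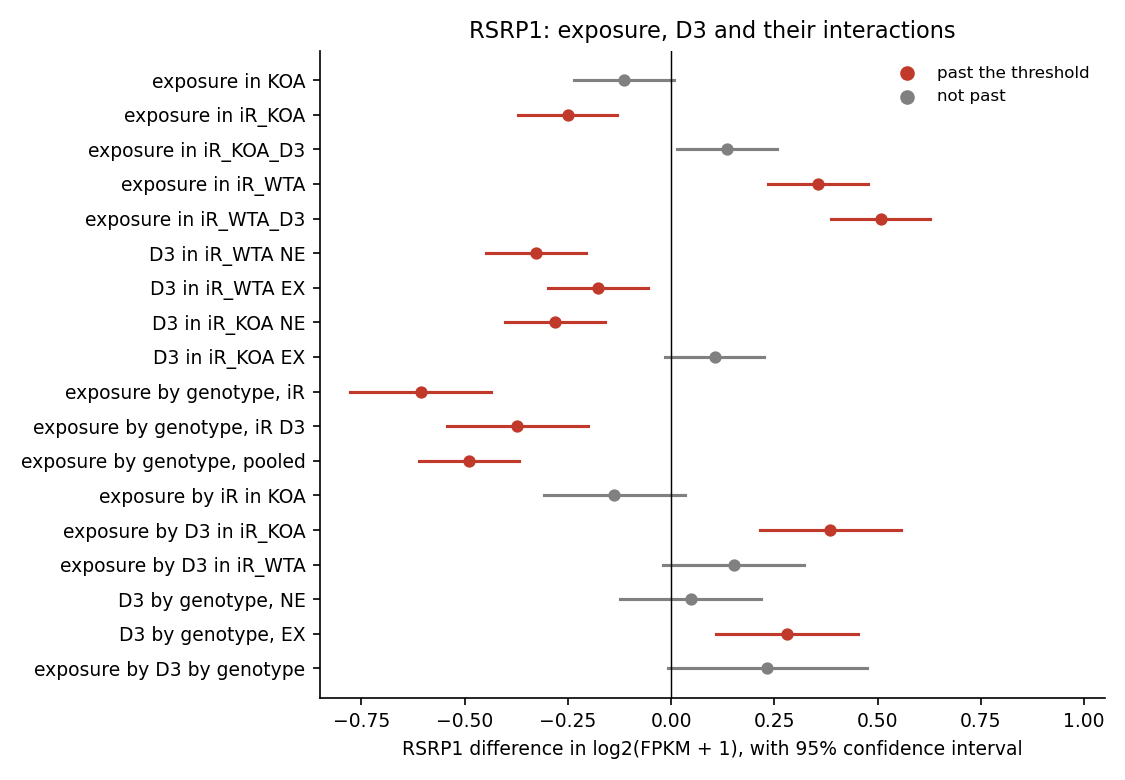
RSRP1 differences in log2(FPKM + 1) with 95% confidence intervals for the 5 exposure and 4 D3 comparisons and the 9 interactions, in red where the adjusted p was under 0.05. Exposure is positive in both wild-type backgrounds (0.36 and 0.51) and the exposure by genotype terms are negative (-0.61, -0.37 and -0.49 pooled).

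With D3, RSRP1 was 0.794 ± 0.0302 (SE) times its level without D3 in unexposed wild type and 0.885 ± 0.0346 times in exposed wild type. The log2 differences were -0.33 (adjusted p = 5.28e-05, 48.7% of genes called) and -0.18 (adjusted p = 0.0159, 47.4% called). The second call was lost with median-of-ratios scaling (-0.13) and quantile normalization (-0.11), and without exposed iR_WTA_D3 replicate 1 or 3 (-0.15 each). In the knockout the unexposed ratio was 0.801 ± 0.0251 (-0.28, adjusted p = 0.00026, 53.7% called), close to that of the wild type.

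In the exposed knockout the ratio was 1.09 ± 0.0625 (0.11, adjusted p = 0.138, 52.3% called), and 0.18 under both other scalings, past the threshold. The D3 effect in the knockout minus that in the wild type was 0.05 (95% interval -0.12 to 0.22, adjusted p = 0.77, 17.5% called) in unexposed cells. In exposed cells it was 0.28 (adjusted p = 0.0191, 17.9% called), a call lost when only the 4 groups were fitted (adjusted p = 0.0674) and without replicate 1 of exposed iR_KOA (0.23), of exposed iR_KOA_D3 (0.25) or of exposed iR_WTA_D3 (0.25).

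The genes most like RSRP1 were ranked by Pearson's r of log2(FPKM + 1) among genes with a mean of at least 5 FPKM. These correlations are descriptions over libraries that share groups. Over the 12 wild-type libraries the highest were FOSL2, an AP-1 subunit (r = 0.99, rho = 0.92), CRKL, a signalling adaptor (r = 0.98, rho = 0.97), PDCD7, a protein of the minor spliceosome (r = 0.97, rho = 0.94), EDN1, the secreted peptide endothelin-1 (r = 0.97, rho = 0.97), and PHLDA2 (r = 0.97, rho = 0.93). In all, 108 of 7129 genes (1.51%) had r above 0.9. The lowest were ABCA1, a cholesterol exporter (r = -0.97, rho = -0.95), PEX13, a peroxisomal import protein (r = -0.97, rho = -0.93), and MTA3 (r = -0.96, rho = -0.97). Without the 2 libraries farthest from the RSRP1 median, r was 0.98 for FOSL2, 0.97 for CRKL and 0.95 for EDN1.

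The likeness of FOSL2 and RSRP1 held among the 6 unexposed wild-type libraries (r = 0.99), but among the 6 exposed ones it rested on 2 libraries (r = 0.91, and -0.45 without them). CRKL kept r at 0.94 and 0.98 in these sets. In the 12 iR knockout libraries the r with RSRP1 was 0.06 for FOSL2, 0.10 for CRKL and -0.17 for EDN1. There exposure raised FOSL2 by 0.30 in iR_KOA (adjusted p = 1.18e-06) and EDN1 by 0.44 (adjusted p = 1.17e-05), while the RSRP1 transcript fell. In iR_KOA_D3 exposure raised FOSL2 by 0.77 (adjusted p = 2.24e-14) and EDN1 by 0.47 (adjusted p = 2.22e-06). RSRP1 was higher there by 0.13 and did not pass (adjusted p = 0.0648). Pooled over both states, the exposure effect on FOSL2 was higher in the knockout than in the wild type by 0.26 (adjusted p = 7.32e-05). This difference did not pass for EDN1 (-0.16, adjusted p = 0.165). For PHLDA2, by contrast, the pooled effect was lower in the knockout by 0.54 (adjusted p = 0.00713), the same direction as RSRP1.

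Knockout libraries formed separate sets, KOA and iR, so a value of r pooled over them mainly restates that split and is not given. The genes ranked highest over the 18 knockout libraries were IGFBP7, VAT1, NEFL, HMGN4 and POR, and the lowest MAN2A2, PCED1A and THSD4. IGFBP7, a secreted binder of insulin-like growth factors, was at 6.47 ± 0.790 and 7.05 ± 0.699 FPKM (SD, n = 3) in unexposed and exposed KOA and at 14.8 to 16.6 FPKM, as group means, in the iR knockout groups. Its r with RSRP1 was 0.16 within the 6 KOA libraries and 0.44 within the 12 iR knockout libraries. Over all 30 libraries, where genotype separates the values, the highest were TPM4, CDH2, LPCAT1, ACTB and STX3 and the lowest MUC5B, TCTA and SLCO3A1. Within the 12 iR knockout libraries STX3, a syntaxin of membrane fusion, had r = 0.89 (rho = 0.87) and the other 4 of the highest had values from -0.54 to -0.12.

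**Figure D4:**
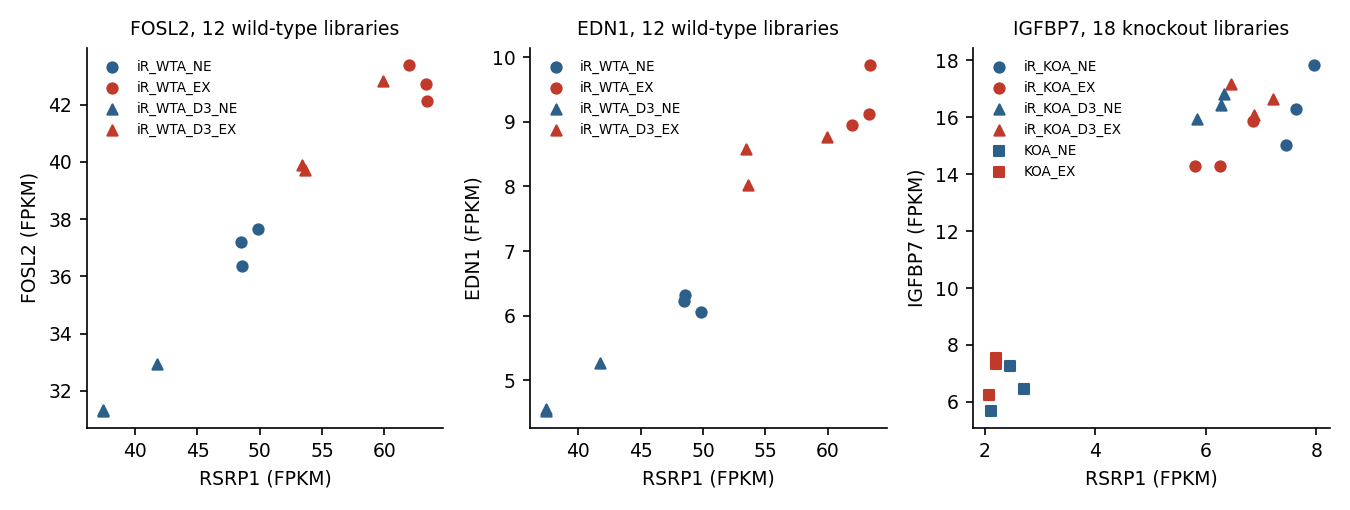
FPKM of FOSL2 and EDN1 against RSRP1 in the 12 wild-type libraries, and of IGFBP7 against RSRP1 in the 18 knockout libraries, 1 point per library, with circles for iR, triangles for iR with D3, squares for KOA, red for exposed and blue for unexposed. FOSL2 and EDN1 follow RSRP1 with r of 0.99 and 0.97, and the IGFBP7 points form 2 separate sets.

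No other gene of the table overlaps RSRP1 in RefSeq, and genes absent from the table were not searched for overlap. TMEM50A, which shares the 79 bases shown above, was at 31.7 to 42.2 FPKM, and SYF2, a spliceosome protein 9746 bases away on the other side (chromosome 1, 25222276 to 25232502), was at 15.0 to 20.6 FPKM. The 79 bases lie at the distal start of RSRP1. Of the 8 transcripts that start within 10000 bases of it, 3 share bases with the coding exons of RSRP1-201. Another 8 start within 1000 bases of the RSRP1-201 start, and gene-level values do not tell these starts apart. TMEM50A did not follow RSRP1. Its difference between knockout and wild type was -0.05 in unexposed iR (adjusted p = 0.26), -0.13 in exposed iR (adjusted p = 0.0112), 0.03 in unexposed iR with D3 (adjusted p = 0.589) and 0.07 in exposed iR with D3 (adjusted p = 0.141). Its exposure effect was between -0.06 and 0.01 in the 5 backgrounds, none called, with adjusted p from 0.268 to 0.924.

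SYF2 was higher in the knockout in unexposed iR (0.22, adjusted p = 0.000815), unexposed iR with D3 (0.14, adjusted p = 0.019) and exposed iR with D3 (0.16, adjusted p = 0.00916), opposite to RSRP1, and did not pass in exposed iR (0.06, adjusted p = 0.319). With iR it was higher in the unexposed knockout (0.29, adjusted p = 0.000112). Of the next genes, MACO1, 92642 bases beyond the RefSeq start, was lower in the knockout, the direction of RSRP1. It was lower by 0.26 in unexposed iR (adjusted p = 0.000439), 0.23 in exposed iR (adjusted p = 0.00189) and 0.28 in unexposed iR with D3 (adjusted p = 0.000189). In exposed iR with D3 it was lower by 0.13 and did not pass (adjusted p = 0.057). RUNX3 was lower in the knockout by 0.80 in unexposed iR with D3 (adjusted p = 7.89e-11) and by 0.77 in exposed iR with D3 (adjusted p = 1.7e-10). Its difference did not pass in unexposed iR (0.10, adjusted p = 0.186) or in exposed iR (-0.14, adjusted p = 0.0603). LINC02793 and the blood group gene RHCE did not reach the level needed for a test.

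**Figure D5:**
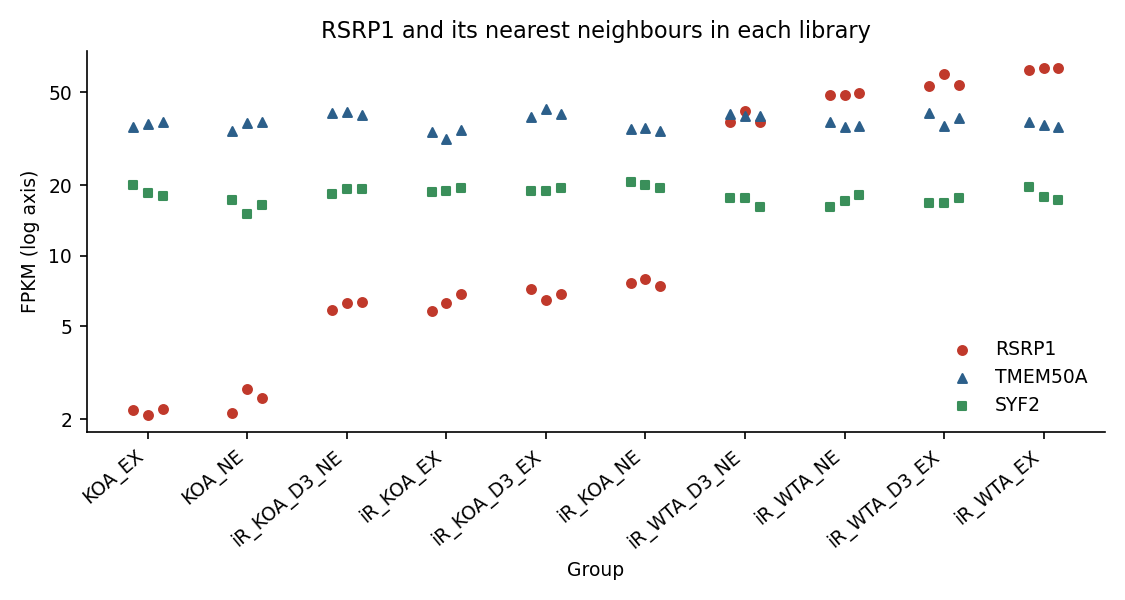
FPKM on a log axis of RSRP1 (circles), TMEM50A (triangles) and SYF2 (squares) in each of the 30 libraries, by group. RSRP1 ranges from 2.09 to 63.4 FPKM while TMEM50A stays between 31.7 and 42.2 and SYF2 between 15.0 and 20.6.

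Other genes of RSRP1's functional surroundings were taken from lists of known genes. The lists were chosen with earlier results of these data known, so a share above that of all genes is not independent of these data. Of 11 measured SR proteins, none was higher in the knockout and 7 were lower in unexposed iR, 6 in exposed iR, 9 in unexposed iR with D3 and 8 in exposed iR with D3. The list's shares called were 63.6%, 54.5%, 81.8% and 72.7%, against 65.3%, 65.6%, 69.1% and 69.9% of all genes, and its medians were -0.17, -0.18, -0.29 and -0.23 against -0.06, -0.05, -0.11 and -0.09. SRSF9 fell by 0.41 and SRSF5 fell by 0.41 in unexposed iR, where RSRP1 fell by 2.53. Of 50 other arginine-serine-rich or speckle genes, 27 were lower and 6 higher there (median -0.15), and the 66.0% called was near the 65.3% of all genes. PNN, a speckle-associated splicing regulator, fell by 0.41, and the speckle RNA MALAT1 rose by 0.70.

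With exposure the SR proteins did not move as RSRP1 did in the wild type. In iR_WTA 5 of 11 fell and 0 rose, and in iR_WTA_D3 4 fell and 1 rose, while RSRP1 rose in both. The share of the list called, 45.5% in each, was above the 28.6% of all genes in iR_WTA and near the 41.8% in iR_WTA_D3. SRSF5 went from 80.5 ± 5.31 to 40.9 ± 1.62 FPKM (SD, n = 3) in iR_WTA, a fall of 0.96 on the log2 scale, and fell by 0.98 in iR_KOA, where RSRP1 fell too. THRAP3, a speckle protein, fell by 0.59 in iR_WTA, and TRA2A, a splicing activator, rose by 0.47. Of the 50 other genes 9 rose and 6 fell in iR_WTA, and 16 rose and 10 fell in iR_WTA_D3, shares of 30.0% and 52.0% against 28.6% and 41.8% of all genes. None of the 50 was called in the pooled exposure by genotype term that RSRP1 passed, where only 4.43% of all genes were, so few would be called at that share. Of the SR proteins 2 of 11 were called (18.2%), SRSF7 (0.28) and SRSF3 (0.23), with the sign opposite to that of RSRP1.

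Among 14 kinases and phosphatases of SR proteins, 3 were called in that pooled term, 21.4% against 4.43% of all genes. CLK1 shared the sign of RSRP1 (-0.31, adjusted p = 0.0142), as did DYRK1B (-0.34, adjusted p = 0.00117), and PPP1R10, a phosphatase subunit, did not (0.16, adjusted p = 0.0489). CLK1 rose with iR in the unexposed knockout by 0.80, as RSRP1 did, but was lower with iR in the exposed knockout by 1.19, where RSRP1 was higher by 1.21. In the knockout against the wild type 4 of the 14 were higher and 7 lower in unexposed iR, with 78.6% called against 65.3% of all genes. CLK1 was higher (0.45 in unexposed iR), opposite to RSRP1. DYRK3 and HIPK2 fell there by 1.06 and 0.96.

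With D3 the SR proteins moved as RSRP1 did in unexposed cells: 7 of 11 fell and 1 rose in the wild type, and 9 fell and 0 rose in the knockout. The shares called were 72.7% and 81.8% against 48.7% and 53.7% of all genes, and the medians -0.17 and -0.25 against -0.01 and -0.06. SRSF2 fell by 0.38 and 0.50. These counts depend on the scaling, with 5 lower in the knockout under both other scalings and 4 in the wild type under quantile normalization. The 50 other genes had 22 lower in the wild type and 31 in the knockout, and 44.0% and 64.0% were called against 48.7% and 53.7% of all genes, so the wild-type share was below that of all genes. PNN was lower by 0.60 and 0.54. In exposed cells 7 of the 11 SR proteins fell with D3 in the wild type and 8 in the knockout, and 0 rose in either. The shares called were 63.6% and 72.7% against 47.4% and 52.3% of all genes. RSRP1 did not fall with D3 in the exposed knockout (0.11, adjusted p = 0.138 by limma), so the likeness did not hold there.

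Of 26 measured secreted factors, a group that the series title ties to RSRP1, 15 were lower and 8 higher in the knockout in unexposed iR (median -0.35), and 88.5% were called against 65.3% of all genes. This list too was chosen with earlier results of these data known, so its shares are not independent of them. In unexposed iR with D3 the counts were 15 lower and 8 higher (median -0.22), and 88.5% were called against 69.1% of all genes. In exposed iR they were 13 lower and 9 higher (median -0.19), and 84.6% were called against 65.6%. In exposed iR with D3 there were 11 lower and 12 higher (median 0.004), and 88.5% were called against 69.9%. The medians of all genes in these 4 states, in the order given, were -0.06, -0.11, -0.05 and -0.09. The balance of the list was thus not the same in all 4 states. In unexposed iR, IL11 fell by 3.29, more than RSRP1. The chemokine CCL2 fell by 2.16, and CXCL1, another chemokine, fell by 2.05. In the pooled exposure by genotype term 7 were higher and 2 lower, 34.6% against 4.43% of all genes, while RSRP1 itself was lower. The median exposure effect on this list was 0.53 in KOA, 0.34 in iR_KOA, 0.12 in iR_KOA_D3, 0.08 in iR_WTA and 0.0003 in iR_WTA_D3. The knockout value in iR_KOA_D3 was close to that of iR_WTA. The medians of all genes, in the same order, were -0.02, -0.05, -0.04, -0.04 and -0.05. Of the 26 factors 19, 17, 15, 12 and 13 were called, where 41.5%, 35.3%, 45.1%, 28.6% and 41.8% of all genes were. More were thus called in iR_WTA_D3 than in iR_WTA, although the median was lower there. These backgrounds differ in more than RSRP1, and a relation to the level of RSRP1 was not tested.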

How the data were processed

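The authors' deposited table gives 1 FPKM value for each of 26801 genes in each library. fastp, HISAT2, HTSeq and the build GRCh38 are named, with no versions, per the submitters' processing notes. The annotation, strand setting and gene lengths are not given in the sources used. Sense and antisense reads cannot be told apart. Columns were matched to samples by name, and 6 columns that matched no sample were not used.

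Whole reads were recovered for all 26801 genes (tolerance 0.01), with 2640 bases as the RSRP1 length implied by the values. FPKM corrects for depth and length but not for composition.

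Values were fitted as log2(FPKM + 1) with limma 3.58.1 (R 4.3.3; trended moderated test, all 10 groups, 20 residual degrees of freedom) over the 12086 genes that reached 1 FPKM in 3 or more libraries. There were 15 comparisons of 2 groups, 9 interactions and 9 neighbouring pairs, each adjusted by Benjamini-Hochberg over all genes. A log2 difference of low genes is understated on this scale. The fit was tested on simulated data. Residual percents are ratios of mean FPKM with an SE propagated from both groups.

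RSRP1 was named throughout. Other genes were named by rule: the 5 highest and 3 lowest r in each set of libraries, the 3 nearest genes of the table on each side, and up to 4 called list members with the largest difference, of which examples are given. The secreted, SR protein, kinase and speckle lists, like RSRP1 itself, were chosen with earlier results of these data known, and the r within subsets of libraries was added after the values were seen. Alternatives were the pseudocount, the filter, 2 scalings, the trend, the groups fitted, a replicate block and leaving out each library, and voom (limma) on the recovered reads was added after seeing the data. Replicate numbers were not used to pair samples in the main fit, and the labels do not say whether they do.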

Additional observations from a re-analysis of the deposited data

Results flagged for a closer look

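RSRP1 responded differently between backgrounds in 5 of the 9 interactions tested with limma. The exposure effect was lower in the knockout than in the wild type by 0.61 on the log2 scale in iR (value -0.61, adjusted p = 0.000197), by 0.37 in iR with D3 (-0.37, adjusted p = 0.0139) and by 0.49 pooled over both (-0.49, adjusted p = 7.06e-06). In the iR knockout it was higher with D3 than without by 0.39 (adjusted p = 0.00824). The effect of D3 in exposed cells was higher in the knockout than in the wild type by 0.28 (adjusted p = 0.0191). These terms share groups and are not independent of each other, and each group holds 3 libraries.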

How the results depend on the processing

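Of 29 distinct RSRP1 comparisons, 20 kept their direction and side of the threshold under all 10 alternatives and without each library, and 9 did not. The replicate block changed no call of RSRP1 (exposure in iR_WTA 0.36, adjusted p = 4.1e-05; exposure by genotype in iR -0.61, adjusted p = 0.000142). Over the 135 same-numbered pairs of libraries the deviations correlated at -0.45 to 0.344 (median 0.0153), with 38 pairs over 0.1. All pairs of groups were pooled in this check, so it cannot decide whether numbers pair samples within a background.

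Median-of-ratios scaling and quantile normalization gave 0.16 and 0.17 for exposure in iR_KOA_D3 and 0.18 and 0.18 for D3 in exposed iR_KOA, both then past the threshold, and -0.13 and -0.11 for D3 in exposed iR_WTA, 0.034 and 0.031 for unexposed iR_KOA minus exposed iR_KOA_D3, both then not past it. For exposed iR_KOA minus unexposed iR_KOA_D3, main 0.03, they gave -0.022 and -0.013, and the range without 1 library was -0.024 to 0.079. Unexposed iR_KOA minus exposed iR_KOA_D3 also lost its call with no filter (0.15) and with voom (0.17). Fitting only the groups compared kept the RSRP1 values but ended the calls of exposure by genotype in iR D3 (-0.37) and D3 by genotype in exposed cells (0.28), with fewer samples in the fit.

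Without 1 library the RSRP1 ranges were -0.18 to -0.056 for exposure in KOA, 0.10 to 0.17 in iR_KOA_D3, -0.23 to -0.15 for D3 in exposed iR_WTA, 0.055 to 0.16 for D3 in exposed iR_KOA, 0.23 to 0.33 for D3 by genotype in exposed cells, 0.11 to 0.18 for unexposed iR_KOA minus exposed iR_KOA_D3 and 0.13 to 0.21 for exposed iR_WTA_D3 minus unexposed iR_WTA. The residual percent in unexposed iR was 16.4 with quantile normalization. Where not said otherwise, the cause was not tested.

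Counts of genes called changed by over 1.5 times when only the groups compared were fitted: exposure in iR_KOA 4272 to 2131, exposure by genotype 65 to 17 in iR and 288 to 106 in iR D3, exposure by D3 500 to 158 in the knockout and 202 to 52 in the wild type, and D3 by genotype in exposed cells 2164 to 1165. With a pseudocount of 0.1 the 65 became 40. The three-way term called 2 genes and 1 to 11 under the alternatives. VAT1, with D3 in the unexposed knockout, was 0.0023 with median-of-ratios scaling, opposite to its main sign.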
